A study of Mus musculus with 10 samples.

Results

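The genes described here are 37 cell cycle and proliferation genes, chosen by name from 4 roles: G1 cyclins and kinases, DNA replication and nucleotide supply, regulators of mitotic entry and exit, and mitotic structure and proliferation markers. Of these, 35 had a probe on the array and 18 had values in 3 or more mouse pairs, among 11130 genes with a probe and 4299 genes with that many values. Ccnb1 and Plk1 were not analysed here. The series set the aortic arch of ApoE-/-,MyD88-/- mice (double-null) against that of ApoE-/- mice (apoE-null) on 10 two-colour arrays, with 1 mouse of each genotype on each array. Both groups lack apolipoprotein E, whose loss raises plasma cholesterol and gives mice arterial plaques, and only the double-null mice lack MyD88, the adaptor that carries signals from interleukin-1 receptors and most Toll-like receptors. A high fat diet for 8 weeks is stated for both genotypes, on the labels of 8 arrays, and the arrays without the statement hold mice that other arrays cover. There were 5 mouse pairs, each hybridised in both dye orientations: both mice were female in pair 1 and male in pairs 2 to 4, and in pair 5 the double-null mouse was male and the apoE-null mouse female. The sources used here give no strain or age, and both deletions are carried by the whole animal according to the genotype names.

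Cells enter the division cycle when D-type cyclins with Cdk4, and then Cdk2 with its cyclins, inactivate the retinoblastoma family and release E2F factors, which switch on the genes for DNA replication. The DREAM complex represses cell cycle genes in resting cells, and its MuvB core later joins B-MYB and FOXM1 to switch on the genes for mitosis, acting at CHR elements often found beside CCAAT boxes. In plaques, both macrophages and smooth muscle cells are known to divide, while most cells of the healthy arterial wall rest.

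Promoter sequences are shown for the 4 measured genes on which the comparison below turns most: Cdc20, Rrm1 and Cdk2, which had the smallest p-values, and Mcm6, which had the lowest ratio. They are from RefSeq (build GRCm38.p6), run 5′ to 3′ on the gene's strand from 250 bases before to 50 bases after the start, and capitals mark every match to 3 motifs. Those motifs are the E2F core (TTCCCGC or TTCGCGC or TTGCCGC or TTGGCGC), the CHR (TTTGAA or TTCGAA) and the CCAAT box (CCAAT), searched on both strands, so that a match on the other strand is shown as its reverse complement. The windows lie at chr4:118437294-118437593 (minus strand) for Cdc20, chr7:102441445-102441744 (plus) for Rrm1, chr10:128705002-128705301 (minus) for Cdk2 and chr1:128359656-128359955 (minus) for Mcm6.
Cdc20: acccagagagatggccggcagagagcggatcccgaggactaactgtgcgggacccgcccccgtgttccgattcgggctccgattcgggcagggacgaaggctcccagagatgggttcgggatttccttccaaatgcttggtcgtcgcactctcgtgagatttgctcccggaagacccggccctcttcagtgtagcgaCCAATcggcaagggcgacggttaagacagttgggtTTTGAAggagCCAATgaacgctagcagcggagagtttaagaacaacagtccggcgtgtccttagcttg
Rrm1: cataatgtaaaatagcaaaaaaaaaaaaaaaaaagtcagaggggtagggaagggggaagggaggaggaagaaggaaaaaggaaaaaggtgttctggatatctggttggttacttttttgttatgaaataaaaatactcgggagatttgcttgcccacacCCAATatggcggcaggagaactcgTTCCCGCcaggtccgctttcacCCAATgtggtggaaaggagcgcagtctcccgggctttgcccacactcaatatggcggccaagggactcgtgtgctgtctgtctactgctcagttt
Cdk2: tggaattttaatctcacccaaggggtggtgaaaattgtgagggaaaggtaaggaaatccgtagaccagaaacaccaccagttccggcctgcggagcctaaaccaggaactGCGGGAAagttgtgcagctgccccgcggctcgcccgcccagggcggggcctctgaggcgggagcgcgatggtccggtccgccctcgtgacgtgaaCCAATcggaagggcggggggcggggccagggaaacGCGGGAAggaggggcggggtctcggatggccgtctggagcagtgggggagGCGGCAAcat
Mcm6: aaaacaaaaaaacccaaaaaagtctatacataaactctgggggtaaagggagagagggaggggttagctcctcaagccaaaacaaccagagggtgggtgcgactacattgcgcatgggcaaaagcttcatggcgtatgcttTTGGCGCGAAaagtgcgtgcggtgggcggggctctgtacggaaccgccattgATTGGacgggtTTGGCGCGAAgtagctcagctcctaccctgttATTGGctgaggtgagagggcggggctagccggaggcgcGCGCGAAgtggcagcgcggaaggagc
Cdc20 held 1 CHR and 2 CCAAT boxes and no match to the E2F core. Rrm1 held 1 E2F core and Cdk2 held 3. Mcm6 held 5 matches to the E2F core, of which 4 form 2 overlapping pairs on opposite strands. A match describes these letters in this window and is not a measured binding site.

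The motifs differed by role. Promoters were in the RefSeq table for 30 of the 37 genes, as 32 windows, because 2 genes had 2 windows each. The E2F core was in 34.4% of these windows and in 63.6% of the 11 windows of replication genes, against 9.57% of all 32851 windows in the table. The CHR was in 43.8% of the windows and in 75% of the 12 windows of mitotic entry and exit genes, against 19.2% of all windows. The CCAAT box was in 78.1% of the windows, against 37.4% of all windows.

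The labels were checked through the deleted gene. Myd88 fell 1.86-fold in double-null aorta (log2 ratio -0.90 ± 0.22, SD, n = 5 pairs, limma adjusted p = 0.0269) and was below 0 on 10 of 10 arrays, although its adjusted p was between 0.0558 and 0.124 when any 1 pair was left out. The sources used here do not say where its probe lies relative to the deleted part. Each array gave 4581 to 7057 values for 13872 probes, and intensities were not analysed here, so the number of arrays and the blank cells limit the precision. Smooth muscle markers had values in 3 or more pairs for 9 of 11 genes on the array, Acta2, Myh11 and Tagln among them, and macrophage markers for 21 of 24, whereas T and NK cell markers had them for 2 of 15. Ratios give no level, so this shows which probes could be read, not how abundant a transcript was. The labels number the mice separately, so each p-value reflects how far mouse pairs differed.

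None of the 18 measured cell cycle genes passed the test between genotypes, and their ratios were small. By limma with Benjamini-Hochberg adjustment over 4299 genes, 0 of 18 passed an adjusted p of 0.05, while 0.814% of all genes did (35 genes, 27 higher and 8 lower). That split over all genes depended on the fit: it was 16 higher and 35 lower with arrays as separate values, 12 and 17 with the pair as a random block, 15 and 18 in the male pairs alone and 0 and 3 without dye-affected genes. At an unadjusted p of 0.05, 3 genes passed, Cdc20, Cdk2 and Rrm1, all above 0, which is 16.7% of 18 against 9.47% of all genes (4.02% above 0 and 5.44% below 0). The median log2 ratio, double-null over apoE-null, was 0.09 for the 18 genes and -0.04 for all genes, and 15 of 18 (83.3%) were above 0, against 41.7% of all genes. With arrays that had double-null RNA in channel 2 alone, 11 of 18 were above 0 and the median was 0.05, and with channel 1 arrays alone 19 of 22 were and the median was 0.21. In bulk tissue, fewer cells of a type and less RNA per cell cannot be told apart. The 95% interval lay within 1 log2 unit of 0 for all 18 genes and within 0.5 for 11 of them, and the widest bound, 0.99 for Cdc20, is a 1.98-fold difference. A gene that missed the threshold is therefore not shown to be equal in the genotypes, but differences above that size were outside the intervals of these 18 genes.

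With both dye orientations averaged, the small excess above 0 was in every pair. The medians of the measured genes in pairs 1 to 5 were 0.11, 0.19, 0.05, 0.08 and 0.13, where all genes had -0.08, -0.03, -0.0021, -0.04 and -0.04. In the same order 10 of 17, 9 of 15, 12 of 17, 10 of 16 and 13 of 17 cell cycle genes with a value were above 0. Of all genes with a value, 42.2%, 46.6%, 49.7%, 44.8% and 43.4% were. Rrm1, Mcm6, Mcm7, Cdk2 and Cdc20 kept 1 sign in each pair with a value, which is 27.8% of 18 genes against a background of 13.5% of all genes. Of these 5, Mcm6 was below 0 and the others above 0.

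**Figure D1:**
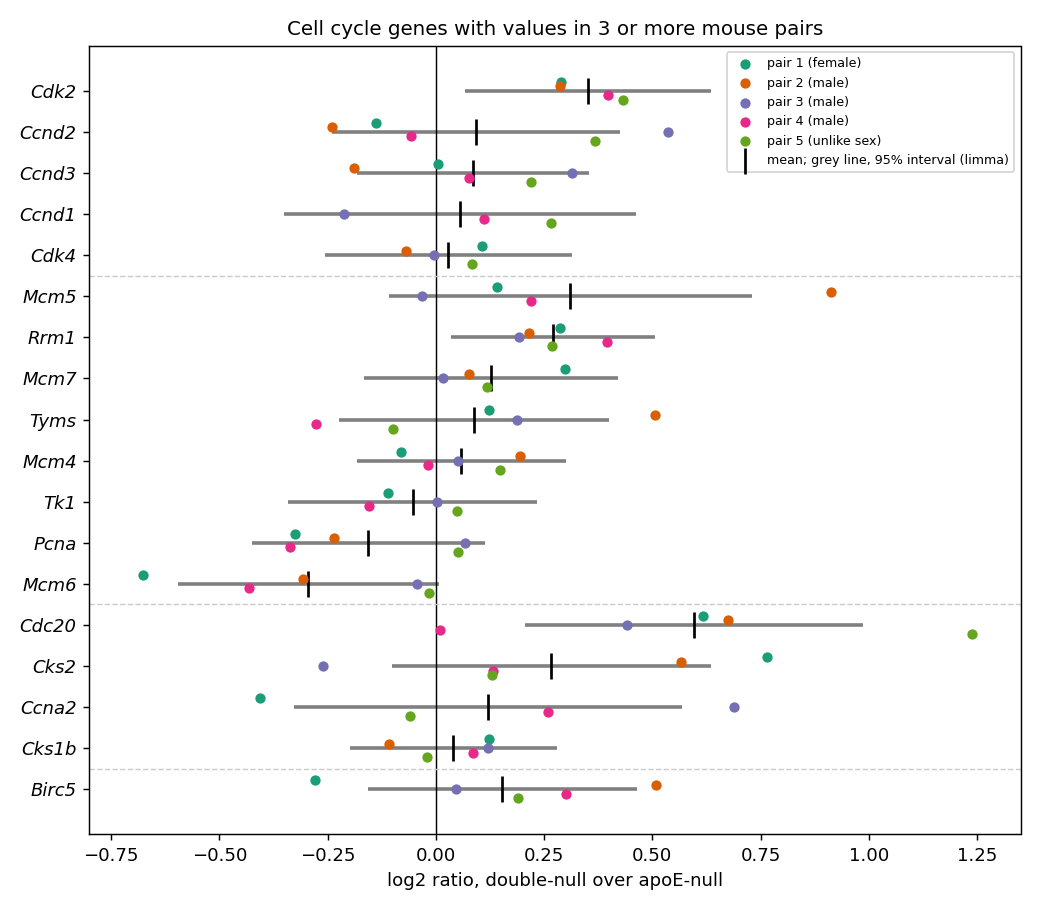
Log2 ratio, double-null over apoE-null, of the 18 measured cell cycle genes, grouped by role with dashed lines between roles. Points are mouse pairs, black ticks the means and grey lines the 95% intervals from limma; Cdc20 reaches furthest to the right with a mean of 0.60 and Mcm6 furthest to the left with -0.29, and most other means lie close to 0.

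Among the G1 cyclins and kinases, 5 of 6 genes were measured and all 5 means were above 0, between 0.03 and 0.35. Cdk2, the kinase that drives cells from G1 into DNA synthesis, had log2 ratios of 0.67, 0.48, 0.46 and 0.46 in pairs 1, 2, 4 and 5 where double-null RNA was in channel 2, and -0.10, 0.09, 0.34 and 0.41 in those pairs with it in channel 1. In pair 3 it had a value of -0.73 on the channel 1 array alone. The 4 pair values were close together, from 0.29 to 0.43, with a mean of 0.35 ± 0.08 (SD, n = 4 pairs, limma adjusted p = 0.438), but the channel 1 arrays of pairs 1 and 3 were below 0. With pair 3's single array included the mean was 0.14, with arrays as separate values 0.23, with the pair as a random block 0.20, and on the channel 1 arrays alone 0.0025.

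Ccnd3, a D-type cyclin that activates Cdk4 and Cdk6, had log2 ratios in pairs 1 to 5 of -0.30, 0.01, 0.57, 0.12 and 0.26 on the channel 2 arrays and 0.31, -0.39, 0.06, 0.03 and 0.18 on the channel 1 arrays. Its mean was 0.09 ± 0.19 (SD, n = 5 pairs, limma adjusted p = 0.794; 0.029 without pair 3 and 0.15 without pair 2), and the 2 arrays of pairs 1 and 2 had opposite signs. Ccnd2, the related D-type cyclin, had -0.43, -0.20, 0.47, 0.09 and 0.50 on the channel 2 arrays and 0.16, -0.28, 0.61, -0.20 and 0.23 on the channel 1 arrays. It was above 0 on both arrays in pairs 3 and 5 and below 0 on both in pair 2 (mean 0.09 ± 0.34, SD, n = 5 pairs, limma adjusted p = 0.826). Ccnd1, the D-type cyclin best known as a target of growth factor signals, averaged 0.06 ± 0.24 over 3 pairs, and Cdk4, the partner kinase of the D-type cyclins, 0.03 ± 0.08 over 4 pairs (SD; limma adjusted p = 0.919 and 0.945). Ccnd1 had array values as low as -1.05 and as high as 0.52, so that its mean hides a wide spread.

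Of the 11 genes for DNA replication and nucleotide supply, 8 were measured, 5 above 0 and 3 below. Rrm1, the large subunit of the ribonucleotide reductase that makes deoxynucleotides, was above 0 on 10 of 10 arrays, as were 0.438% of the 3193 genes with values on all 10. It was the 1 gene of the 18 above 0 on each array with a value, which 0.512% of all genes were. In pairs 1 to 5 its log2 ratios were 0.17, 0.17, 0.02, 0.35 and 0.08 on the channel 2 arrays and 0.40, 0.26, 0.36, 0.44 and 0.46 on the channel 1 arrays. The pair values were tightly grouped, with a mean of 0.27 ± 0.08 (SD, n = 5 pairs, 1.21-fold, limma adjusted p = 0.474), and the channel 1 array was the higher of the 2 in each pair.

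The subunits of the MCM helicase, the ring that unwinds DNA at replication forks, did not share a direction. Mcm6 had log2 ratios in pairs 1 to 5 of -0.64, -0.35, 0.19, -0.55 and -0.21 on the channel 2 arrays and -0.71, -0.27, -0.28, -0.31 and 0.18 on the channel 1 arrays. It was below 0 on 8 of 10 arrays and in each of the 5 pairs, lowest in pair 1 and near 0 in pairs 3 and 5 (mean -0.29 ± 0.28, SD, n = 5 pairs, limma adjusted p = 0.524). Mcm5 had -0.17, 0.84, -0.48 and 0.32 on the channel 2 arrays of pairs 1 to 4 and 0.45, 0.98, 0.41, 0.12 and 0.35 on the channel 1 arrays of pairs 1 to 5. Pair 2 was high on both its arrays, and the mean of 0.31 ± 0.41 (SD, n = 4 pairs, limma adjusted p = 0.588) was 0.11 without it. Mcm7 averaged 0.13 ± 0.12 over 4 pairs and Mcm4 0.06 ± 0.11 over 5 pairs (SD; limma adjusted p = 0.726 and 0.852). The Mcm6 ratio thus stood on the opposite side of 0 from the means of the other 3 measured subunits; a difference between subunits was not tested.

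The remaining replication genes were close to 0. Pcna, the sliding clamp of DNA polymerases, averaged -0.16 ± 0.20, and Tyms, which makes thymidylate, 0.09 ± 0.30 (SD, n = 5 pairs each, limma adjusted p = 0.656 and 0.826). Tk1, the thymidine salvage kinase, averaged -0.05 ± 0.10 (SD, n = 4 pairs, limma adjusted p = 0.889). Pcna was below 0 on 8 of 10 arrays.

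Of the 13 genes of mitotic entry and exit with a probe, 4 were measured, and all 4 means were above 0. Cdc20, the activator of the anaphase-promoting complex that starts chromosome separation, had the highest mean ratio of the 18 genes. In pairs 1 to 5 its log2 ratios were -0.13, 0.72, 0.35, -0.41 and -0.13 where double-null RNA was in channel 2, and 1.36, 0.63, 0.53, 0.43 and 2.60 on the arrays with it in channel 1. The channel 1 arrays were all above 0, while 3 of the 5 channel 2 arrays were below 0, so the orientation means were 0.08 in channel 2 and 1.11 in channel 1. Averaged over orientations, the ratio was 0.60 ± 0.44 (SD, n = 5 pairs, 95% interval 0.21 to 0.99, limma adjusted p = 0.260), and the difference between orientations did not pass the test either (limma adjusted p = 0.0974). It did pass when pair 2 was left out, with an adjusted p of 0.0291.

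Cks2, a small subunit that binds mitotic cyclin-dependent kinases, had log2 ratios in pairs 1 to 5 of 0.79, 0.68, -0.34, 0.22 and 0.24 on the channel 2 arrays and 0.74, 0.45, -0.18, 0.04 and 0.02 on the channel 1 arrays. Its 2 arrays had the same sign in each pair, above 0 in 4 pairs and below 0 in pair 3 (mean 0.27 ± 0.40, SD, n = 5 pairs, limma adjusted p = 0.592; 0.14 without pair 1). Ccna2, the cyclin of S and G2 phase, had -0.73, 0.73, -0.01 and 0.11 on the channel 2 arrays of pairs 1, 3, 4 and 5 and -0.08, 0.47, 0.65, 0.53 and -0.23 on the channel 1 arrays of pairs 1 to 5. Pair 1 was below 0 and pair 3 above 0 on both arrays, and the mean was 0.12 ± 0.47 (SD, n = 4 pairs, limma adjusted p = 0.832). Cks1b, the close relative of Cks2, averaged 0.04 ± 0.10 (SD, n = 5 pairs, limma adjusted p = 0.903).

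Among the 5 genes of mitotic structure and proliferation markers, Birc5 alone was measured in 3 or more pairs. Birc5 encodes survivin, a subunit of the chromosomal passenger complex. Its log2 ratios in pairs 1 to 5 were -0.40, 0.49, -0.23, 0.34 and 0.14 on the channel 2 arrays and -0.16, 0.52, 0.32, 0.26 and 0.24 on the channel 1 arrays. It was below 0 on both arrays in pair 1 and above 0 on both in pairs 2, 4 and 5 (mean 0.15 ± 0.30, SD, n = 5 pairs, limma adjusted p = 0.697; 0.065 without pair 2 and 0.26 without pair 1).

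Much of the mitotic program could not be read. Of the 35 genes with a probe, 51.4% had values in 3 or more pairs, against 38.6% of all genes with a probe, but the share ran from 5 of 6 G1 genes and 8 of 11 replication genes to 4 of 13 mitotic entry and exit genes and 1 of 5 structure and marker genes. The cells of all 10 arrays were blank for Mcm3, a helicase subunit, for the mitotic kinases Aurka and Aurkb, for the Cdk1 phosphatase Cdc25c, for the spindle checkpoint protein Mad2l1, for the ubiquitin-conjugating enzyme Ube2c or for the spindle motor Kif11. The CHR was in 18.8% of the 16 promoter windows of measured genes and in 71.4% of the 14 windows of genes with a probe and fewer values, so the readable genes are mostly not those with this mitotic motif. The sources used here do not say why a cell was left blank, and a blank is not read as absence of the transcript.

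Where these genes did have values, most came from 1 dye orientation. The 10 genes with a value but fewer than 3 pairs had values in 10.0% of the channel 2 cells and in 46.0% of the channel 1 cells, while all probes of that kind had 14.9% and 50.8%. Top2a, the topoisomerase that untangles chromosomes, had log2 ratios of -0.56, 0.37, 0.65, 0.49 and -0.83 in pairs 1 to 5 on the channel 1 arrays and none on the channel 2 arrays. Top2a was thus below 0 in pairs 1 and 5 and above 0 in pairs 2 to 4, each on a single array, and no pair gave a dye-balanced ratio. Mki67, the usual marker of dividing cells, had -0.34 and 0.28 on the channel 2 arrays of pairs 1 and 3, and -0.09 and -0.16 on the channel 1 arrays of pairs 4 and 5. No pair had Mki67 on both arrays, so it gives no dye-balanced ratio.

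Mcm2, another helicase subunit, had log2 ratios of 1.26, 0.25, 0.39 and 0.70 on the channel 1 arrays of pairs 1, 3, 4 and 5. Cdk1, the kinase that starts mitosis, had 0.39, 0.59 and 0.18 on the channel 1 arrays of pairs 1, 3 and 5. All 7 of these values were above 0, but each comes from the orientation in which the measured cell cycle genes also had the higher median, 0.19 against 0.05 in channel 2. Ccnb2, a B-type mitotic cyclin, had 1.67 and -0.81 on the channel 1 arrays of pairs 1 and 4 and -0.03 on the channel 2 array of pair 3. Bub1, a spindle checkpoint kinase, averaged 0.07 in pair 3, its single complete pair, and Stmn1, a protein that destabilises microtubules, averaged -0.32 there. Rrm2, the small subunit of ribonucleotide reductase, had 0.32, Ccne1, the cyclin partner of Cdk2, had 0.13, and the checkpoint kinase Bub1b had -0.20, each on the channel 1 array of pair 4 alone.

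**Figure D2:**
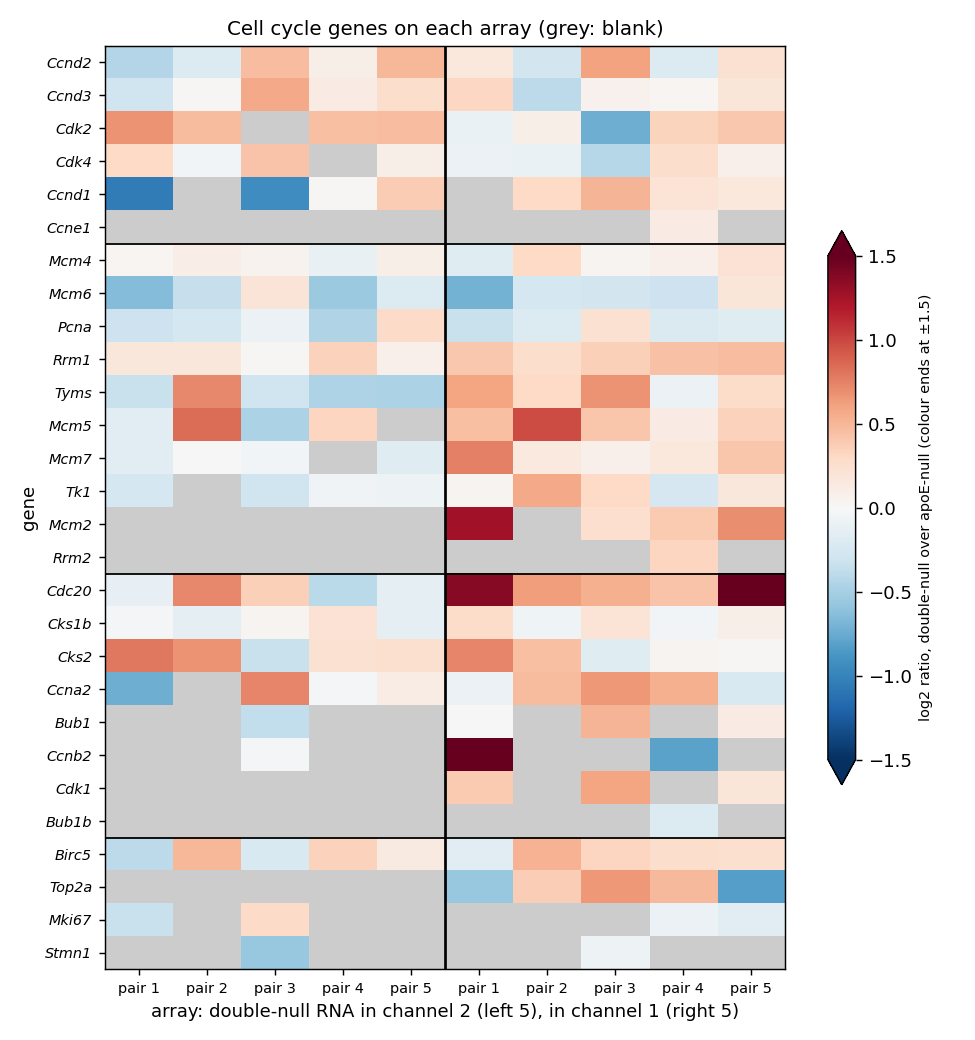
Log2 ratio, double-null over apoE-null, of each cell cycle gene with any value (rows, grouped by role) on each array (columns), with double-null RNA in channel 2 on the left and in channel 1 on the right. Red is higher and blue lower in double-null aorta, colour ends at 1.5 in either direction and grey cells are blank; Rrm1 is red on 10 of 10 arrays, and Top2a, Mcm2 and Cdk1 are grey on all channel 2 arrays.

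No dye or sex difference in the measured genes passed the test. A dye effect passed for 0 of 18 genes by limma against 4.82% of all genes, and 3 passed at an unadjusted p of 0.05 (Cdc20, Tyms and Mcm7, 16.7% of 18) against 21.2% of all genes, and the mean ratio had opposite signs in the 2 orientations for 6 of 18 (33.3%), against 41.4% of all genes. Of 17 genes with values in the female pair and at least 2 male pairs, 0 passed limma's test of the female pair over the male pairs against 0.149% of 4016 genes, and 1 passed at an unadjusted p of 0.05 against 15.3% of them. That 1 was Ccna2, with -0.41 in the female pair and a mean of 0.47 in its 2 measured male pairs (difference -0.88, limma adjusted p = 0.306). With 1 female pair, its spread is assumed to be that of the male pairs.

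Among the inhibitors of cyclin-dependent kinases, which hold cells out of division, 4 of 8 genes on the array were measured. Of these 4, 0 passed limma's test between genotypes, also at an unadjusted p of 0.05, where 9.47% of all genes passed. Cdkn1a, which encodes p21, the inhibitor induced by p53, had pair values of -1.42, 1.16, 1.23, 0.80 and -2.20 in pairs 1 to 5. Its array values were -1.26 and -1.57 in pair 1, 1.62 and 0.70 in pair 2, 1.47 and 1.00 in pair 3, 1.31 and 0.29 in pair 4, and -2.28 and -2.11 in pair 5, channel 2 first. Cdkn1a was therefore below 0 in pairs 1 and 5 and above 0 in pairs 2 to 4, in both dye orientations. The mean over the 5 pairs, -0.08 ± 1.61 (SD, limma adjusted p = 0.960), describes neither set. The apoE-null mouse was female in pairs 1 and 5, but the double-null mouse was female in pair 1 and male in pair 5. The split was made after the values were seen, and 4.54% of 3192 genes had the same signs. Whether the sex of the apoE-null mouse plays a part was not tested.

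The log2 ratio of Cdkn1a was lower in the female pair, at -1.42, than in the male pairs, at a mean of 1.07 (difference -2.48). The ratio compares genotypes within a pair, so it gives no level by sex. With 1 female pair, sex cannot be told apart from the mice of that pair. When each male pair was left out, the difference ran from -2.62 to -2.40. The male values lay close together (1.16, 1.23 and 0.80), so this range could hardly be wide. Set against all 4 other pairs, which include pair 5, the female pair differed by -1.67. In the 3 male pairs alone Cdkn1a was higher in double-null aorta, with a log2 ratio of 1.07 and an adjusted p of 0.0227. Only 1 of its 2 probes had values. The macrophage marker median was also lowest in pair 1, at -1.18, but it was 0.24 in pair 5, and the adipocyte marker median was 2.01 in pair 1 and -0.38 in pair 5; their part in the Cdkn1a ratios was not tested.

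The other inhibitors varied as well. Cdkn1c, which encodes p57, had pair values of -0.34, 0.53, 0.86 and 0.84 in pairs 1 to 4 (mean 0.47 ± 0.56, SD, n = 4 pairs, limma adjusted p = 0.531), below 0 in the female pair and above 0 in the male pairs. Its difference between the female and male pairs was -1.09 and did not pass (limma adjusted p = 0.165). Cdkn2c, which encodes p18 of the INK4 family, had 1.498, 0.41, -1.67, 0.84 and -0.01 in pairs 1 to 5, and the low value of pair 3 came from an array at -3.13 whose partner was at -0.21. Cdkn2d, the p19 member of that family, averaged -0.01 ± 0.19 (SD, n = 5 pairs). Cdkn1b was not measured in 3 or more pairs.

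**Figure D3:**
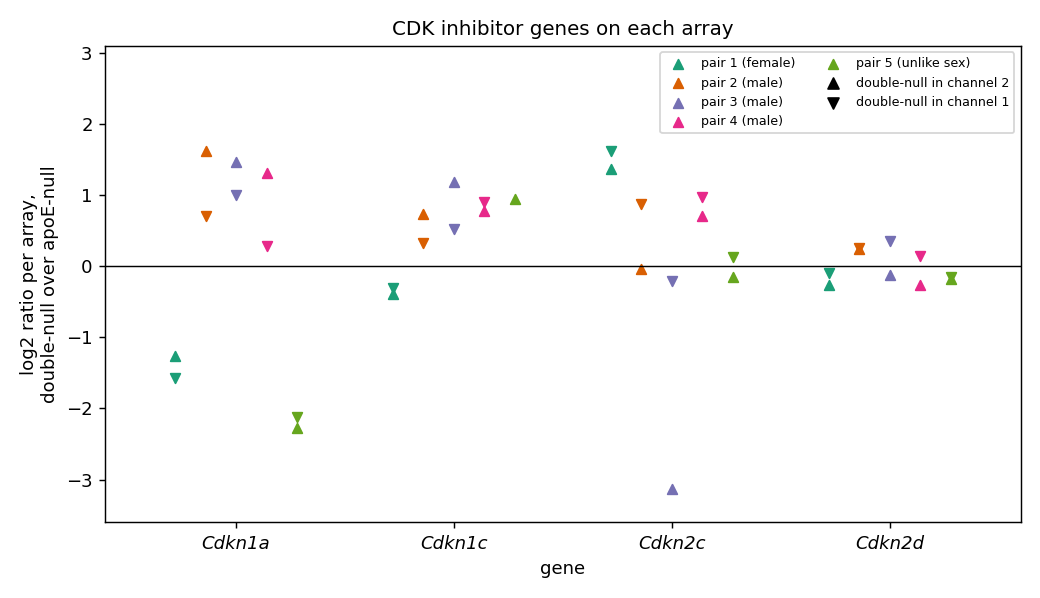
Log2 ratio, double-null over apoE-null, of the 4 measured inhibitor genes on each array, with colour for the mouse pair and the direction of the triangle for the channel of the double-null RNA. Cdkn1a lies below 0 in pairs 1 and 5 and above 0 in pairs 2, 3 and 4 in both orientations, and Cdkn2c has 1 array at -3.13.

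Among the genes around these in the pathway, 1 passed the test between genotypes, and some had ratios that differed widely between pairs. Of the transcription factors that act on them, the E2F, pocket protein and MuvB group, 5 of 12 genes on the array were measured. Of these 5, 0 passed limma's test, also at an unadjusted p of 0.05, where 9.47% of all genes passed. Rb1, the retinoblastoma protein, averaged 0.12 ± 0.23, and its relative Rbl2 -0.08 ± 0.28 (SD, n = 5 pairs each), while E2f5 averaged -0.09 ± 0.24 (SD, n = 3 pairs). Among growth arrest and p53 response genes, 13 of 20 were measured and 0 passed limma's test. At an unadjusted p of 0.05, 1 of 13 passed, against 9.47% of all genes. That 1 was Gadd45b, a stress-induced gene above 0 on 10 of 10 arrays (pair values 0.26, 0.49, 0.54, 0.41 and 0.19, mean 0.38 ± 0.15, SD, n = 5 pairs, limma adjusted p = 0.269). Ddit4, a stress-induced inhibitor of mTOR signalling, had pair values of -2.28, 1.47, 2.13, 1.07 and -1.49 (mean 0.18 ± 1.94, SD), and Trp53inp1, a p53-induced gene, had -0.86, 0.81, 1.28, 0.61 and -0.50 (mean 0.27 ± 0.91, SD, n = 5 pairs each). These genes, chosen after their values were seen, had the signs of Cdkn1a in each pair, as did Gadd45g and Perp. That makes 4 of the 12 genes of the group with values in 5 pairs, where 4.54% of 3192 genes had these signs. Among mitogens, receptors and MYC genes 1 of 13 had them, Ereg, and 0 of the 11 cell cycle genes with 5 pairs did. Ereg was at -0.0036 in pair 5, and its channel 1 arrays of pairs 1 and 5 were above 0, at 0.21 and 0.45. Its dye effect passed (limma adjusted p = 0.0149), so unlike Cdkn1a it did not keep these signs in both orientations. The pattern was taken from Cdkn1a in these data and the lists were chosen with earlier results known. These counts are therefore a description, and a shared response was not tested. The log2 ratio of Ddit4 was -2.28 in the 1 female pair and averaged 1.56 in the male pairs (difference -3.84). The same difference was -1.76 for Trp53inp1. Elsewhere in the group, the antiproliferative genes Tob1 and Btg1 averaged 0.57 ± 0.61 over 3 pairs and -0.21 ± 0.15 over 5 pairs (SD).

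Other genes of replication and mitosis gave no call in limma's test. At an unadjusted p of 0.05, 2 of 19 and 1 of 13 measured genes passed, where 9.47% of all genes did. Of 40 other replication genes on the array, 19 were measured with a median of 0.01, 11 above 0 and 8 below. Pola1, the catalytic subunit of DNA polymerase alpha, had pair values of 0.49, 0.71, 0.57, 0.43 and 0.28 (mean 0.49 ± 0.16, SD, n = 5 pairs, limma adjusted p = 0.123), but its mean was 1.04 with double-null RNA in channel 2 and -0.05 in channel 1, and that difference passed (limma adjusted p = 0.0190). Lig1, the ligase that joins replicated fragments, averaged 0.28 ± 0.14, and Prim1, a primase subunit, 0.21 ± 0.13 (SD, n = 5 pairs each), both above 0 in 5 of 5 pairs. Of 51 other mitosis genes, 13 were measured with a median of 0.02. The cohesin subunit Smc3 averaged -0.43 ± 0.44 and the condensin subunit Smc4 -0.22 ± 0.34, while Anapc1, a subunit of the anaphase-promoting complex, averaged 0.17 ± 0.23 (SD, n = 5 pairs each). Smc3 had a dye effect (limma adjusted p = 0.0372), with -0.77 in channel 2 and -0.08 in channel 1.

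Among mitogens, their receptors and MYC genes, 15 of 28 were measured and 1 passed, against 0.814% of all genes. Mycl, a member of the MYC family, rose in double-null aorta by the averaged values (mean log2 ratio 0.72 ± 0.21, SD, n = 5 pairs, limma adjusted p = 0.0434), but its ratio was 1.92 with double-null RNA in channel 2 and -0.49 with it in channel 1. All 5 channel 2 arrays were above 0 and all 5 channel 1 arrays below 0, and the dye effect passed (limma adjusted p = 6.32e-06). The call was also lost when any 1 pair was left out (adjusted p between 0.0597 and 0.179). Pdgfrb, the receptor for PDGF-B on mural cells, averaged -0.31 ± 0.30, and Mxi1, an antagonist of MYC, 0.24 ± 0.19 (SD, n = 5 pairs each), and neither passed. Among other cyclins and cyclin-dependent kinases, 12 of 19 were measured. Of these 12, 0 passed limma's test, also at an unadjusted p of 0.05, where 9.47% of all genes passed. The members with the smallest p were Ccnt2 and Cdk9, which together form transcription elongation factor P-TEFb, and Ccnl2, a splicing-related cyclin, at -0.39 ± 0.50, -0.23 ± 0.22 and -0.26 ± 0.25 (SD, n = 5 pairs each). The Ccnl2 value averages probes that differed, with -0.47, 0.18 and 0.55 in pair 1 and -0.44, -0.66 and 0.07 in pair 4.

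Marker lists of macrophages, smooth muscle, adipocytes and red cells differed more between pairs than the cell cycle genes. All 21 measured macrophage markers were below 0 in the mean, with a list median of -0.46, while 41.7% of all genes were above 0. In limma's test 0 of them passed, against 0.814% of all genes. At an unadjusted p of 0.05, 11 of 21 passed, against 9.47% of all genes. So did 3 of 3 erythroid, 0 of 9 smooth muscle and 0 of 12 adipocyte markers. The macrophage medians in pairs 1 to 5 were -1.18, -0.45, -0.71, -0.35 and 0.24, so that pair 5 stood on the other side of 0. The smooth muscle medians were -0.51, -0.36, 0.31, 0.01 and -0.40, and the adipocyte medians 2.01, -0.31, -0.41, 0.97 and -0.38. Erythroid markers, with 3 genes measured, had 1.58, 1.01, 0.47, 0.38 and 1.13. B cell markers (3 of 9), T and NK cell markers (2 of 15) and cardiac and skeletal muscle markers (4 of 17) had few measured genes, and fibroblast and endothelial markers had list medians of -0.19 and -0.03. The part of the cell composition in the ratios of the cell cycle genes was not tested.

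**Figure D4:**
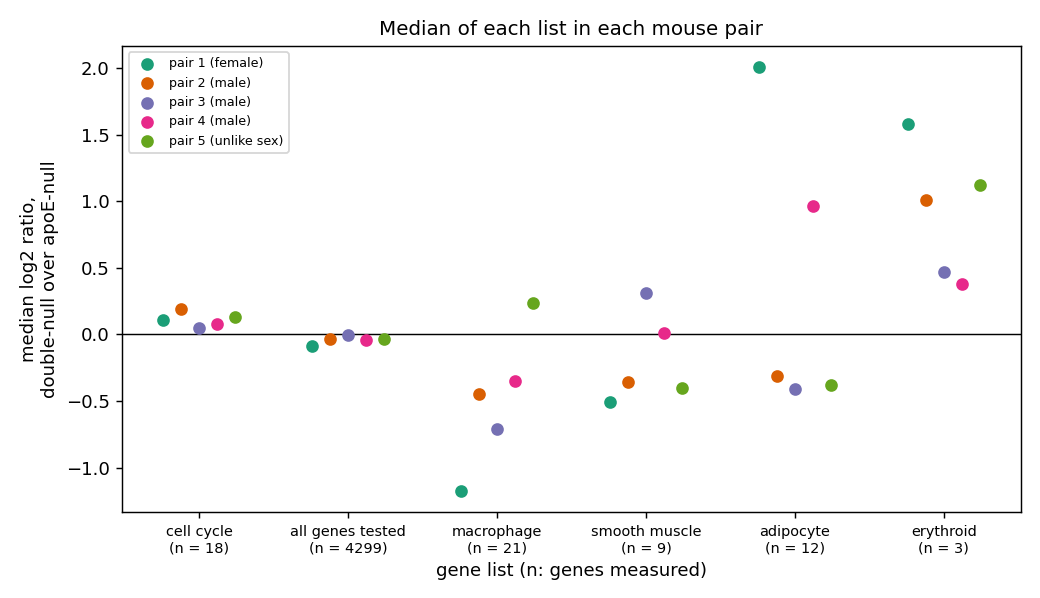
Median log2 ratio, double-null over apoE-null, in each mouse pair (points) for the measured cell cycle genes, all genes tested and 4 marker lists, with the number of genes under each name. The cell cycle medians stay between 0.05 and 0.19, whereas the macrophage medians run from -1.18 in pair 1 to 0.24 in pair 5 and the adipocyte medians from -0.41 to 2.01.

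The ratios of the measured genes can be set beside the promoter motifs. The 5 measured genes with an E2F core in their window had a median log2 ratio of 0.27 and the 9 without it 0.09. Mcm6, which held the most E2F core matches when overlapping ones on opposite strands are counted separately, had the lowest ratio. Cdk2, Mcm5 and Mcm7, with up to 3 matches in a window, had ratios of 0.35, 0.31 and 0.13. The 3 genes with a CHR had a median of 0.13 against 0.09 for the 11 without it. For the CCAAT box the medians were 0.20 in 10 genes with it and 0.06 in 4 without it. These are descriptions of 14 genes with a window, with no test.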

How the data were processed

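Aortic arch RNA was amplified with MessageAmp, labelled with Micromax ASAP and scanned on a GenePix 4000B and quantified in GenePix Pro 3.0, with analysis in GeneSpring, per the labels' protocols. The values the authors deposited are log2 ratios of apoE-null over double-null per array, per the labels' titles. The sources used here give neither their normalization nor the reason for blank cells. Array means lay within 0.00418 of 0.

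Signs were turned to double-null over apoE-null. The 2 dye-swapped arrays of a pair, which the labels tie to the same mice, were averaged, and a pair value needed both. In pair 1 both arrays name the same mice, but each mouse changes genotype between them, and the genotype labels were used. Across probes, Pearson's r between partner arrays was 0.559, 0.306, 0.0431, 0.191 and 0.463 for pair 1 through pair 5, so the 2 arrays of pair 3 shared little of their pattern. Of 13872 probes, 12143 had 1 gene symbol, 49 several and 1680 none; symbols of the platform annotation were updated through RefSeq by Entrez identifier (GRCm38.p6), and 134 kept the older name. Probes of a gene were averaged. Tyms had 2 probes, of which 1 was blank.

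The 4299 genes with 3 or more pair values were tested for a mean of 0 in R 4.3.3 (limma 3.58.1, two-sided moderated test from lmFit and eBayes). P-values were adjusted by Benjamini-Hochberg and called at 0.05. The dye effect was tested on the channel 2 minus channel 1 difference divided by 2, and the female pair against the male pairs with 1 term, without pair 5. The fit was tested on simulated data. Values on every array are given for the 3 members with the smallest p in each role; in each pathway list the 3 with the smallest p were named, plus any past the threshold and Cdkn1a and Cdkn1b; Cdkn2d, Ddit4, Trp53inp1 and other single genes named beside them were added after their values were seen. The members and lists were chosen with earlier results of these data known. Alternatives were leaving out pairs, array-level fits, single orientations, other filters, centring, scaling, other variance settings and the 3 male pairs only. A threshold of 0.10 was another. Those for the female pair against other pairs in Ddit4, and leaving out male pairs for Cdkn1a, were chosen after seeing the data.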

Additional observations from a re-analysis of the deposited data

Results flagged for a closer look

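Among 41 groups of 4 or 5 pair values, 1 held a value that stood apart from the rest, and chance alone gives about 1 in 20. Pdgfrb had a log2 ratio of -0.84 in pair 2, while its other pairs lay between -0.25 and -0.12.

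The female pair differed from the male pairs in Cdkn1a by -2.48 on the log2 scale, with -1.42 in the female pair and 1.07 in the male pairs (limma adjusted p = 0.0246). The adjusted p was 0.0714 without pair 2, 0.0544 without pair 3 and 0.592 against all 4 other pairs. For Ddit4 the difference was -3.84, with -2.28 in the female pair and 1.56 in the male pairs (limma adjusted p = 0.00905), and the adjusted p was 0.0714 without pair 2 and 0.305 against all 4 other pairs.

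In the pathway lists a dye effect passed for Mycl, Pola1, Smc3, Ereg and H2az1, and over all genes for 4.82%. The channel 2 minus channel 1 difference divided by 2 was 1.20 for Mycl (limma adjusted p = 6.32e-06), 0.55 for Pola1 (limma adjusted p = 0.0190) and -0.35 for Smc3 (limma adjusted p = 0.0372). For Ereg it was -0.42 (limma adjusted p = 0.0149). H2az1 had mean ratios of -0.28 in channel 2 and 0.37 in channel 1 (limma adjusted p = 0.0457).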

How the results depend on the processing

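No cell cycle gene passed under any of the 20 alternatives, and the smallest adjusted p among them ran from 0.146 to 0.660. The median log2 ratio of the measured genes was 0.06 to 0.13 when each pair was left out and 0.21 over 22 genes when only arrays with double-null RNA in channel 1 were used, against 0.05 over 18 genes with channel 2 arrays only. Without the block for mouse pairs, with arrays as separate values (no replicate block), the median was 0.09 and 0 genes passed, as with the block as a random effect (consensus correlation 0.35). A dye effect passed for 2 measured genes without pair 2 (Cdc20, adjusted p = 0.0291, and Tyms, 0.0320), for 0 when any other pair was left out, and for 1 gene among those with all 5 pairs (Cdc20, 0.0493). Over all genes, 35 calls became 0 to 17 when each pair was left out, 99 with channel 2 arrays only, 7 with pair values from 1 array, 0 with trended and robust variance, 3 without dye-affected genes and 62 at an adjusted p of 0.10. When each pair was left out, 6 ratios crossed 0: Cdkn2c ran from -0.11 (without pair 1) to 0.69, Cdkn1a from -0.41 to 0.44 (above 0 without pair 1 or 5), Tyms from -0.017 (without pair 2) to 0.18, Rbl2 from -0.16 to 0.033 (without pair 2), Ccnd2 from -0.017 to 0.18 and Ccna2 from -0.069 to 0.30 (both below 0 without pair 3). Leaving out 1 pair moved other ratios by over 1.5 times without a change of sign; those of Mcm5, Cks2, Birc5 and Ccnd3 stand beside their means. With arrays as separate values Ccnd1 was -0.052 and Tk1 0.016, with the random block -0.078 and 0.036, and with pair values from 1 array -0.12 and 0.071. In channel 1 alone Cdk4 was -0.056, Tk1 0.16, Mycl -0.49 and Pola1 -0.054. In channel 2 alone Ccnd1 was -0.40, Mcm7 -0.095, Tyms -0.17, Cks1b -0.012, Cdkn2c -0.25 and Cdkn1a 0.17. In the male pairs alone Cdkn2c was -0.14 and Cdkn1a 1.07. The cause of these changes was not tested. Blank cells limit the mitotic genes most, and signal over background is unknown.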
